A study of Mus musculus with 4 samples.

Results

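The genes described here are Apoe, the 3 genes of complement C1q (C1qa, C1qb and C1qc), and 6 further genes used as readouts of macrophages and their handling of lipid (Cd68, Lyz2, Csf1r, Trem2, Gpnmb and Abca1). They were chosen by name, as 10 of the 32285 genes counted in every section, and all 10 had UMIs in all 4 sections. Apoe encodes apolipoprotein E, which macrophages secrete and load with cholesterol, and which hepatocytes, fibroblasts, adipocytes and glia also make. C1q, the recognition component of the classical complement pathway, is assembled from A, B and C chains, is made mainly by tissue macrophages, and tags dying cells for uptake. Csf1r is the receptor through which macrophages are kept alive, Trem2 is a lipid-sensing receptor of macrophages that have engulfed debris, Cd68 is a lysosomal glycoprotein, Lyz2 is lysozyme M, Gpnmb is a glycoprotein of lipid-loaded macrophages, and Abca1 is the membrane transporter that passes cholesterol to lipid-poor apolipoproteins.

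The study asked how the loss of Ehmt2, a histone H3 lysine 9 methyltransferase, from the pancreatic epithelium changes acute pancreatitis, and Apoe served it as the marker of macrophages in tissue sections. All 4 mice were C57Bl/6, 4 weeks old and carried Pdx1-Cre. The sections labelled PDX1-Cre (WT) kept Ehmt2 (Ehmt2+/+) and those labelled EHMT2 knockout (KO) PDX-Cre carried the floxed gene (Ehmt2 fl/fl), with 2 sections each, called WT and KO here. Every mouse was fasted and then given caerulein, a cholecystokinin analogue that provokes acute pancreatitis, at 50 μg/kg once an hour in 8 injections, and the pancreas was taken 18 h after the first dose, so no untreated pancreas is compared here. Pdx1-Cre acts in pancreatic epithelium and not in macrophages. The assay was CytAssist Visium on formalin-fixed, paraffin-embedded tissue, in which gene-specific probe pairs are captured on a slide of barcoded spots and counted by unique molecular identifiers (UMIs), so a spot is a small region that can hold several cells.

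The 3 C1q genes lie side by side on the minus strand of chromosome 4 (GRCm38, equal to mm10), with C1qb (ENSMUSG00000036905) at 136880129 to 136886187, C1qc (ENSMUSG00000036896) at 136889804 to 136893065 and C1qa (ENSMUSG00000036887) at 136895917 to 136898803, which together span 18675 bases. Apoe (ENSMUSG00000002985) lies on the minus strand of chromosome 7, at 19696109 to 19699188. The promoter windows of Apoe, C1qb and C1qc are shown because these genes share the readout that follows, and because PU.1, the factor that macrophages need to develop, binds sites built around GAGGAA. Each window runs from 250 bases before to 50 bases after a RefSeq transcript start (GRCm38.p6), written 5′ to 3′ on the strand of the gene, and the capitals mark GAGGAA on that strand or TTCCTC, its complement.
Apoe (first of 3 starts, chr7:19699139-19699438, minus strand): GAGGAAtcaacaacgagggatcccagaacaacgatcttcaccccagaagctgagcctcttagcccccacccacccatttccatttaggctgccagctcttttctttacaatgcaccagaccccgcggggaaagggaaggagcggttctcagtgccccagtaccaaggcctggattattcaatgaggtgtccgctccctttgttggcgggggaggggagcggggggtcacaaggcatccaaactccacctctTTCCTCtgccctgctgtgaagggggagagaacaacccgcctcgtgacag
C1qb (chr4:136886151-136886450, minus strand): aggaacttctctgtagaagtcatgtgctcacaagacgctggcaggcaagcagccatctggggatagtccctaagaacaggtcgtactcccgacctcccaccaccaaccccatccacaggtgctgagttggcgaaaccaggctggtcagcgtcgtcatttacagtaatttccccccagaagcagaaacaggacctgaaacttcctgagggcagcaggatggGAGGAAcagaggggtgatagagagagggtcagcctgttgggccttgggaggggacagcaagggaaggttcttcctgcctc
C1qc (chr4:136892865-136893164, minus strand): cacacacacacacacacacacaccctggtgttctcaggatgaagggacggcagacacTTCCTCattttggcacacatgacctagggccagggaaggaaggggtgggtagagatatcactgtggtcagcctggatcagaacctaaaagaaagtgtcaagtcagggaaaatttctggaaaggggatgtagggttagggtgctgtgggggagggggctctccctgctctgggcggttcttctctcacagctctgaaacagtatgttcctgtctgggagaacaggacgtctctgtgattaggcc
The motif began 30 bases before the start of C1qb, on the strand of the gene, and 193 bases before that of C1qc, on the opposite strand. In the Apoe window it stood at the first base, 250 bases before the start, and again on the opposite strand at base 1 after the start. Promoter windows were given for 8 of the 10 genes, and 5 of them (Apoe, C1qb, C1qc, Cd68 and Trem2) held GAGGAA on either strand in at least 1 window. By window this was 6 of 10, where 28.28% of all 32851 windows of the same length held it. A match of these letters is a description of the window and not a binding site.

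The sections differed in depth and in the enzyme share of their RNA, and both bear on every value below. WT replicate 1 held 43803829 UMIs over tissue and the other 3 sections held between 7000825 and 8697030. Among spots with at least 500 UMIs, which numbered 6144, 7871, 6483 and 6462 in WT replicates 1 and 2 and KO replicates 1 and 2, the median spot held 6328, 874, 981 and 1113 UMIs. Of all UMIs over tissue, 65.6% and 53.3% came from genes of digestive enzymes in WT and 22.2% and 21.3% in KO, so other genes together took a larger part of the UMIs in the KO sections. Olfactory receptor genes, which the pancreas is not known to use, gave the background, and the median of 1135 of them was 0.251 and 5.40 UMIs per 1000000 UMIs over tissue (CPM) in the WT sections and 8.28 and 12.8 in the KO sections. The 4 Y-linked genes Ddx3y, Eif2s3y, Kdm5d and Uty together had 2 and 1 UMIs in the WT sections and 283 and 437 in the KO sections, and Xist had 0 UMIs in all 4, so sex and genotype cannot be told apart. Ehmt2 had 19.7 and 3.79 CPM in the WT sections and 10.4 and 11.9 in the KO sections, and does not check the labels. Replicate 1 of each genotype lay on one slide and replicate 2 of each on another, while both WT sections lay in capture area B1 and both KO sections in A1, so capture area and genotype cannot be told apart. The files list 13898 barcodes in all 4 sections because every slide carries the same barcodes.

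The sections carried a macrophage signal apart from these 10 genes. All 24 genes of a macrophage list that holds none of them had UMIs in every section, and they summed to 138 and 326 CPM in the WT sections and 1888 and 1548 CPM in the KO sections. Their log2 fold changes of KO against WT were all above 0, with a median of 1.05 and 0 of 24 called by edgeR (0 at an unadjusted p under 0.05). Of all genes tested, 56.2% were above 0, with a median of 0.25. In tissue sums of this kind, a difference in the number of macrophages and one in RNA per macrophage cannot be told apart. Lists of other cell types that can express some of these genes also had higher sums of CPM in both KO sections, an order that 91.1% of all genes tested had. Fibroblast markers summed to 430 and 640 CPM in the WT sections and 2172 and 2044 in the KO sections, and fat markers to 42.4 and 140 CPM against 402.95 and 469. Lymphoid markers summed to 13.9 and 99.3 CPM against 234 and 233, hepatocyte markers to 21.2 and 52.4 against 88.1 and 108, and glial markers to 3.22 and 34.0 against 49.6 and 63.4, sums of 5 genes near the olfactory receptor background. In edgeR 0 genes of these lists were called, and the log2 fold change was above 0 for 3 of 7 fibroblast markers (median −0.09), 7 of 7 fat markers (median 0.83), 8 of 9 lymphoid markers (median 1.07), 5 of 6 hepatocyte markers (median 0.68) and 3 of 4 glial markers tested (median 0.74). At an unadjusted p under 0.05 there were 1 lymphoid marker and 1 hepatocyte marker. Their part in the values of Apoe was not tested.

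Apoe was the gene of the set that differed most between the KO sections. It had 34.0 and 78.5 CPM in WT replicates 1 and 2 and 615 and 166 CPM in KO replicates 1 and 2. KO replicate 1 stood 3.72-fold above KO replicate 2, a wider gap than for any other gene of the set and than the 2.31-fold between the WT sections for Apoe. The means were 56.3 ± 31.5 CPM (SD, n = 2) in WT and 390.4 ± 318 CPM (SD, n = 2) in KO (two-sided exact permutation test, p = 0.333, the smallest that 2 sections against 2 can give). Within a slide the KO section was 18.1-fold above the WT section on slide 1 and 2.11-fold on slide 2.

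The C1q genes differed less than Apoe between the KO sections. C1qa had 17.4 and 33.1 CPM in the WT sections and 212 and 141 CPM in the KO sections. C1qb had 7.15 and 11.7 CPM against 68.1 and 53.4, and C1qc had 7.10 and 16.4 CPM against 92.8 and 65.8. Both KO sections thus lay above both WT sections for each of the 3 genes. The chains kept nearly the same proportions in every section, with C1qa at 54.0% to 56.8% of all C1q UMIs, C1qb at 18.3% to 22.6% and C1qc at 22.4% to 26.8%. These proportions also reflect how well each gene's probes capture, so levels are not compared between genes. Apoe did not keep a constant proportion to C1q, since it had 1.07 and 1.28 UMIs per C1q UMI in the WT sections and 1.65 and 0.636 in KO replicates 1 and 2, and the KO sections thus lay on either side of the WT sections.

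Of the receptors, Csf1r had 5.96 and 17.8 CPM in the WT sections and 87.3 and 80.2 CPM in the KO sections. Trem2 had 2.97 and 11.8 CPM against 42.7 and 36.8. Both receptors were closer between the KO sections than between the WT sections. Cd68, the lysosomal glycoprotein, had 23.97 and 27.4 CPM in WT and 179 and 124 CPM in KO. Abca1, the cholesterol transporter, had 6.26 and 5.40 CPM in WT and 26.7 and 21.8 CPM in KO. Gpnmb had 0.890 and 5.40 CPM in WT and 14.4 and 15.6 CPM in KO, and Lyz2 had 0.457 and 5.63 CPM in WT and 11.3 and 13.5 CPM in KO.

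**Figure D1:**
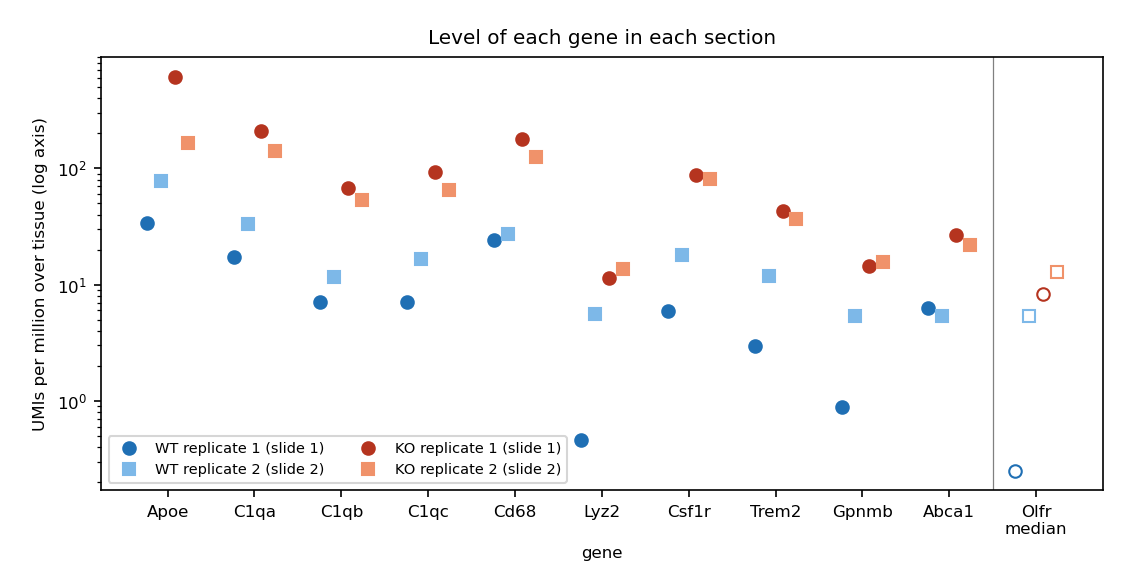
UMIs per 1000000 UMIs over tissue (CPM, log axis) for each gene in each section, with colour for genotype and marker shape for slide. Open markers give the median of 1135 olfactory receptor genes. Every filled KO marker lies above both WT markers of its gene, Lyz2 and Gpnmb lie close to the olfactory receptor medians outside WT replicate 1, and those medians are also higher in the KO sections.

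All 10 genes thus had a higher CPM in both KO sections than in both WT sections, as did 91.1% of the 20066 genes tested, so this order does not set them apart. With digestive enzyme genes left out of the total, the order again held for 10 of 10 and for 41.5% of all genes, and Apoe then had 98.9 and 168 UMIs per 1000000 in WT and 791 and 210 in KO. With TMM scaling, which takes most genes as unchanged, it held for 6 of 10 (C1qa, C1qc, Lyz2, Csf1r, Trem2 and Gpnmb) and for 19.4% of all genes. On that scale Apoe had 121 and 78.9 CPM in WT and 364 and 78.5 CPM in KO, so the genotypes overlapped. Cd68, Abca1 and C1qb overlapped as well, with C1qb at 25.4 and 11.8 CPM in WT and 40.3 and 25.3 CPM in KO.

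None of the 10 genes was called between the genotypes by the quasi-likelihood test of edgeR, with p adjusted over all 20066 genes by Benjamini-Hochberg. Of all genes 0.0947% were called (19 genes), and 0.0548% were called higher in KO. At an unadjusted p under 0.05 there were also 0 of the 10 with TMM scaling. With upper-quartile normalization there were 7, beside 1249 of all 20066 genes. DESeq2 called 0 of the 6 for which it gave an adjusted p (none was given for Lyz2, Trem2, Gpnmb and Abca1). The log2 fold change of KO against WT was above 0 for 9 of 10, with a median of 0.91. Over all genes tested the median was 0.25, and 56.2% were above 0. Markers of adrenal cortex, near the olfactory receptor medians, had 4 of 4 tested above 0 (median 0.72). Those of intestinal epithelium had 5 of 5 (median 0.81), and those of red blood cells 0 of 4 (median −0.74). A median above that of all genes was thus not particular to the 10 genes. Csf1r had the highest at 1.20 (SE 0.84), followed by Apoe at 1.15 (SE 1.08), C1qc at 1.04 (SE 0.84) and C1qa at 1.01 (SE 0.97). Trem2 was at 0.93, Gpnmb at 0.89, Lyz2 at 0.85, C1qb at 0.82, Cd68 at 0.55 and Abca1 at −0.09. The adjusted p from edgeR was 0.872 for each gene except Abca1, where it was 0.957. Normalization moved all genes together, and with library sizes alone the median over all genes was 1.64 and C1qa, C1qb and Cd68 were called (log2 fold changes of 2.81, 2.69 and 2.56). Without KO replicate 1 the log2 fold change of Apoe was −0.35, and without WT replicate 2 that of Cd68 was −0.20. Leaving out a WT section leaves 1 that is assumed to vary like the KO sections. Without WT replicate 1, C1qb and Abca1 were called, both higher in KO, in a fit that called 356 of 20105 genes. Without WT replicate 2, Lyz2, Csf1r, Trem2, Gpnmb and Abca1 were called (1.87, 0.94, 0.87, 1.19 and −0.92), in a fit that called 16701 of 20122 genes.

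Within slides, the TMM-scaled difference of KO against WT was above 0 for 9 of 10 genes on each slide. The median on the log2 scale was 1.19 on slide 1 and 0.92 on slide 2. The share of all genes above 0 on each slide was not computed, so this count does not set the 10 genes apart. With slide as a block in edgeR, the median log2 fold change over all genes was 0.35. Apoe was at 1.59 on slide 1 and at −0.01 on slide 2, and Lyz2 at 2.04 and 0.18, the genes with the widest gaps between the slides. C1qa was at 1.02 and 1.01, and Csf1r at 1.29 and 1.09. Abca1 was the gene below 0 on slide 1, at −0.49, and was at 0.93 on slide 2. With slide as a block in edgeR, 0 of the 10 genes were called, and Apoe had a log2 fold change of 0.79 (SE 0.95, adjusted p = 0.846).

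Spots with a UMI of Apoe made up 20.3% of the spots with at least 500 UMIs in WT replicate 1 (95% Clopper-Pearson interval 19.3% to 21.3%), 6.76% in WT replicate 2 (6.21% to 7.34%), 43.2% in KO replicate 1 (42.0% to 44.5%) and 17.5% in KO replicate 2 (16.5% to 18.4%). These intervals cover counting error only. The deep WT replicate 1 therefore lay above KO replicate 2, and the mean difference of 16.8 percentage points between the genotypes did not exceed the spread between sections (two-sided exact permutation test, p = 0.667). Off the tissue, Apoe was found in 0.312%, 0.494%, 1.48% and 0.221% of spots of the same sections. For C1qa the shares were 11.5% and 2.96% in WT and 18.5% and 14.8% in KO. For C1qb they were 4.74% and 1.004% against 6.43% and 6.05%, and for C1qc 4.93% and 1.42% against 8.73% and 7.52%. In these unthinned shares 7 of 10 genes were higher in both KO sections than in both WT sections, where 52.0% of all genes were, and Apoe, Cd68 and Abca1 overlapped. Cd68 had shares of 15.1% and 2.50% in WT and 16.1% and 13.9% in KO. Abca1 was found in 4.36% and 0.483% against 2.70% and 2.57%, so that WT replicate 1 was the highest section.

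Thinning every spot to 500 UMIs removed the difference in depth but not that in background. The median share of olfactory receptor genes was then 0.0165% and 0.270% in WT and 0.424% and 0.663% in KO. Spots with Apoe were then 2.17% and 3.90% in WT and 26.4% and 8.13% in KO, and those with C1qa 1.23% and 1.68% against 10.1% and 7.02%. All 10 genes were then higher in both KO sections, as were 90.4% of all genes. Thinning instead to 500 UMIs with digestive enzyme genes set aside, which kept 5492, 2127, 5984 and 5924 spots, left 10 of 10 higher in both KO sections, beside 46.1% of all genes. Here Apoe was in 5.21% and 7.93% of WT spots and in 31.6% and 10.1% of KO spots. C1qa was in 2.92% and 3.30% against 12.4% and 8.37%, and Csf1r in 0.986% and 1.20% against 5.14% and 4.84%. On slide 2 the gap between KO and WT was 2.19 percentage points for Apoe and 5.06 for C1qa, and on slide 1 it was 26.4 and 9.50.

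**Figure D2:**
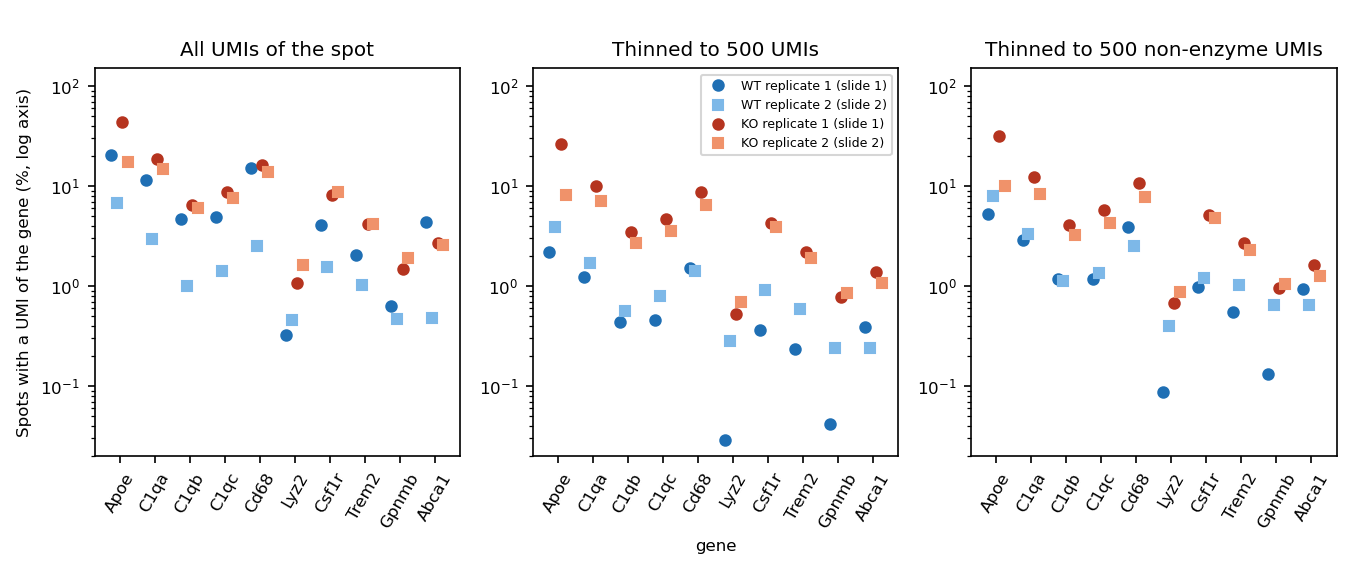
Share of spots with at least 1 UMI of each gene (percent, log axis) in each section, with all UMIs of spots with at least 500 (left), after thinning to 500 UMIs (middle) and after thinning to 500 UMIs with digestive enzyme genes set aside (right). For Apoe, Cd68 and Abca1, WT replicate 1 lies among or above the KO sections on the left and below them once depth is equal, and Apoe in KO replicate 1 stands above every other value in each panel.

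The low genes were hard to tell from background. Lyz2, among the most abundant transcripts of mouse macrophages, had shares of 0.326% and 0.457% in WT and 1.08% and 1.62% in KO. Its share was reached by 13.7%, 58.2%, 30.1% and 41.9% of olfactory receptor genes in the 4 sections. Lyz2 also has a close relative, Lyz1, and how the probes separate the pair is not given in the sources used here. Gpnmb had shares of 0.635% and 0.470% in WT and 1.47% and 1.92% in KO, where 0.264%, 55.7%, 9.78% and 25.9% of olfactory receptor genes reached it. Abca1 was reached by 52.5% of them in WT replicate 2 and by 5.02% in KO replicate 2, and by none in the other sections. No olfactory receptor gene reached Apoe, C1qa or Cd68 in any section. C1qb, C1qc, Csf1r and Trem2 were reached by at most 1.76% of them, in WT replicate 2.

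Apoe never exceeded 9 UMIs in any listed spot, on or off the tissue (5, 5, 9 and 4 at most in the 4 sections). It was found in 1245, 532, 2803 and 1128 of the spots with at least 500 UMIs. Spots with at least 2 UMIs of Apoe made up 3.39% and 0.546% of those spots in the WT sections and 14.2% and 2.40% in the KO sections.

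Co-detection asks whether spots with Apoe also tended to hold another gene of the set. It was measured as the odds ratio of detection over 10 strata of spot depth in each section, because deep spots detect every gene more often. All 3 C1q genes were found with Apoe more often than depth predicted in all 4 sections. C1qa and Apoe shared 207 spots of WT replicate 1 where 162 were expected from depth, 28 where 16.0 were expected in WT replicate 2, 602 where 523 were expected in KO replicate 1, and 201 where 177 were expected in KO replicate 2. The log2 odds ratios of C1qa were 0.58, 0.93, 0.47 and 0.28. For C1qb they were 0.43, 0.60, 0.51 and 0.51, and for C1qc 0.35, 0.55, 0.44 and 0.54. The C1qb value in WT replicate 2 rests on 79 spots with C1qb, 8 of them with Apoe. The percentage of spots with Apoe was 50.3% among those with C1qa and 41.6% among those without in KO replicate 1, so the tendency was modest in size.

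The mean over sections was 0.56 for C1qa, 0.51 for C1qb and 0.47 for C1qc, higher than 97.5%, 95.8% and 94.1% of 14312 genes with at least 20 positive spots in every section. The median of those genes was 0.14, and their values from the 5th to the 95th percentile ran from −0.22 to 0.49. Among them were 155 olfactory receptor genes, with a median of 0.14 and a 95th percentile of 0.55. C1qa passed that percentile narrowly, and C1qb and C1qc lay below it. Of the olfactory receptor genes, 14.2% were above 0 in all 4 sections. Csf1r, Trem2 and Cd68 were also above 0 in all 4 sections, with means of 0.33, 0.29 and 0.20, higher than 83.1%, 77.6% and 62.9% of those genes. Cd68 was only at 0.049 in WT replicate 2 and 0.015 in KO replicate 2, and Trem2 at 0.089 in WT replicate 2. Thus 6 of the 9 other genes were above 0 in all 4 sections, some of them barely, where 21.6% of all genes were. Lyz2 had a mean of 0.41 and Gpnmb of 0.39, each above 0 in 3 of 4 sections on 20 and 37 positive spots in the thinnest section. Abca1 had 0.21, −1.50, 0.25 and 0.28, and its low value in WT replicate 2 rests on 1 shared spot among 38. With strata of UMIs of genes other than digestive enzymes, 3 genes, which were C1qa, C1qb and C1qc, remained above 0 in all 4 sections. With every spot thinned to 500 UMIs it was again 3, now C1qa, C1qc and Lyz2, the last near background and at 0.01 in KO replicate 1. The share of all genes was not computed under either setting, so these counts do not set the genes apart. Between the genotypes no difference in co-detection passed a two-sided exact permutation test (9 tests, p from 0.333, the smallest that 2 sections against 2 can give, to 1).

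**Figure D3:**
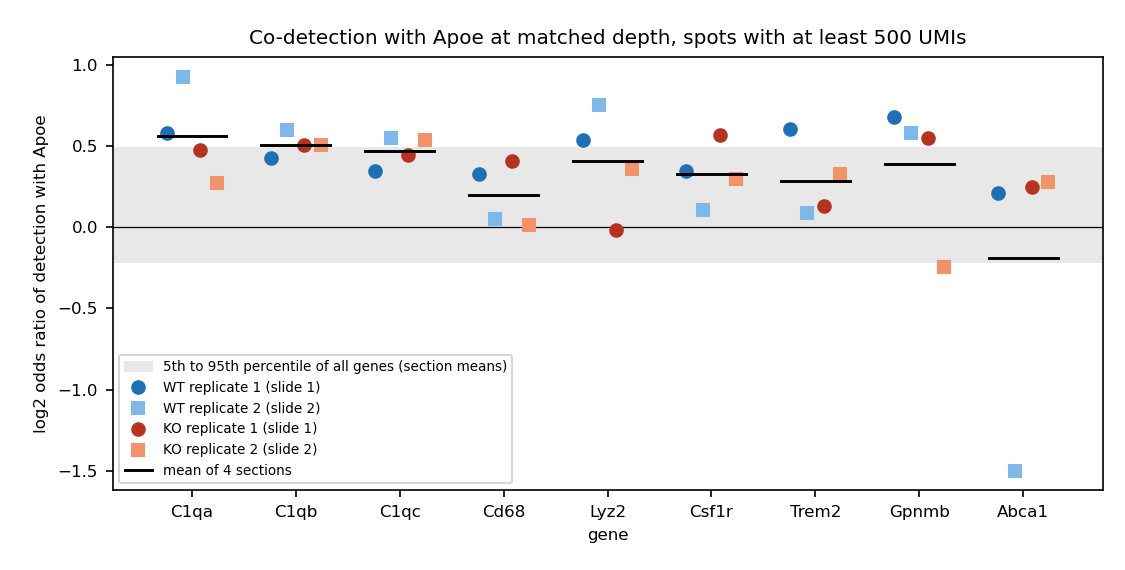
Log2 odds ratio of finding each gene in a spot with Apoe, at matched depth, in each section (markers) and as the mean of the 4 sections (bars). The grey band covers the 5th to the 95th percentile of the section means of 14312 genes. C1qa and C1qb have means above the band, C1qc just below its upper edge, and Cd68 and Trem2 lie well inside it.

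Among all 45 pairs of the 10 genes, 43 had an odds ratio above 1 when the sections were pooled as strata, and 19 were above 1 in all 4 sections. Pairs without a value in some section, such as Lyz2 with Gpnmb, could not count among the 19. The share over pairs of all genes was not computed. Over genes with at least 20 positive spots in every section, the median log2 odds ratio was 0.14 with Apoe and 0.18 with C1qb. Of those genes, 21.6% and 16.5% were above 0 in all 4 sections. The C1q genes were found with each other at pooled log2 odds ratios of 0.52 (C1qa with C1qb), 0.33 (C1qa with C1qc) and 0.62 (C1qb with C1qc). C1qb and C1qc shared 122 spots where 85.4 were expected, though WT replicate 2 alone was at −0.23. C1qa and C1qb shared 234 where 178 were expected. Cd68 and Csf1r shared 289 where 216 were expected, at a pooled log2 odds ratio of 0.57. Csf1r with Apoe was at 0.43 and Trem2 with Apoe at 0.27. The highest pooled value, 0.91 for Gpnmb with Abca1, rests on 15 shared spots.

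The genes most like Apoe across spots were sought among genes with at least 100 positive spots in every section. The 10 with the highest mean log2 odds ratio over the 4 sections were Actb (0.91), Retnla (0.87), Gngt2 (0.75), Ncf1 (0.74), Ptafr (0.68), Nnmt (0.68), Ifi27l2a (0.66), Klf4 (0.61), Cd180 (0.61) and Pcdhga9 (0.61). Actb was in 5798 of 6144 and 6503 of 7871 spots in WT replicates 1 and 2. In KO replicates 1 and 2 it was in 6386 of 6483 and 6304 of 6462 spots. Its value thus rests on the minority of spots without it. Actb is cytoplasmic actin, Retnla is a secreted product of alternatively activated macrophages, Ncf1 is a subunit of the phagocyte NADPH oxidase, Ptafr is the receptor for platelet-activating factor, and Cd180 is a surface receptor of myeloid and B cells. No role is given here for Gngt2, Nnmt, Ifi27l2a, Klf4 and Pcdhga9, and the cell type of the 10 genes was not tested. All 10 were above 0 in all 4 sections, though Cd180 was at 0.00 in KO replicate 2. They were chosen by their mean over these same sections, so this is in large part fixed by the choice. Of all genes with at least 100 positive spots in every section, 26.8% were above 0 in all 4. Apart from Actb, each had its highest value in WT replicate 2, where between 100 and 214 spots held the gene. For C1qb the 5 highest were 2310022A10Rik (0.94), Nudt14 (0.92), Pik3cd (0.90), Rrp1b (0.90) and Ipo9 (0.89), all above 0 in all 4 sections and each highest in WT replicate 2, where C1qb itself was in 79 spots. These 5 were likewise chosen by their mean. With C1qb, 14.9% of genes with at least 100 positive spots in every section were above 0 in all 4.

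Spots with none of the other 9 genes made up 62.9% and 88.9% of spots in the WT sections and 51.1% and 54.7% in the KO sections, and held 54.5%, 88.3%, 49.8% and 51.3% of all UMIs. They held 52.4% and 84.9% of the Apoe UMIs in the WT sections and 42.9% and 46.8% in the KO sections, somewhat less than their part of all UMIs in each section. Apoe was denser in spots with several of the others. In KO replicate 1 it had 5.26 UMIs per 10000 UMIs in spots with none of them, 6.32 with 1, 8.27 with 2 and 8.78 with at least 3. In KO replicate 2 the values were 1.51, 1.79, 1.70 and 2.38. In WT replicate 1 they were 0.328, 0.321, 0.436 and 0.487, and in WT replicate 2 they were 0.713, 0.857, 1.63 and 5.31, the last from 3 spots with 5 UMIs of Apoe. Each section thus was higher at the upper end than at the lower one, without a steady climb in WT replicate 1 and KO replicate 2. Spots with at least 3 of the other genes also had more UMIs in each section, with a median of 10980 against 5391.5 in WT replicate 1 and 1050 against 955 in KO replicate 1.

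**Figure D4:**
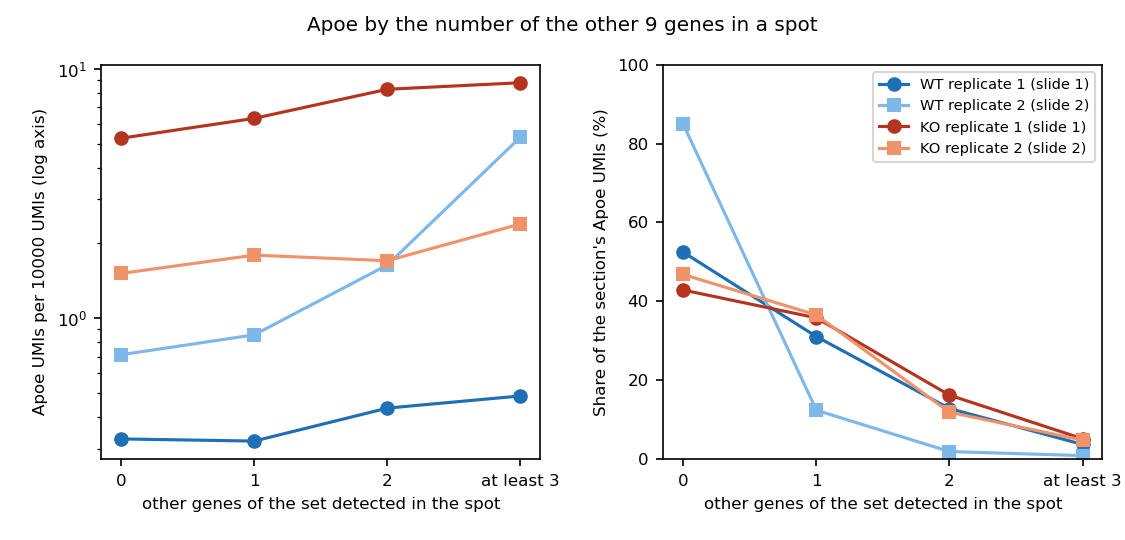
Left, Apoe UMIs per 10000 UMIs (log axis) in spots with 0, 1, 2 or at least 3 of the other 9 genes, by section. Right, the percent of each section's Apoe UMIs in those spots. KO replicate 1 is the highest section at every step, and spots with none of the other genes hold 42.9% to 84.9% of Apoe UMIs, where they are 51.1% to 88.9% of the spots.

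Spots were also ranked by markers of other cell types, taking the top 5% of a section by a list's UMIs per 10000 with at least 2 UMIs of the list. Apoe and C1q were both less frequent where acinar markers were richest, in spots where by construction acinar genes took more of the UMIs and left fewer for any other gene. The log2 odds ratio of Apoe in acinar-marker-rich spots against the rest, at matched depth, was −0.71, −0.75, −1.71 and −0.47 in WT replicates 1 and 2 and KO replicates 1 and 2, and that of any C1q gene was −0.52, −0.95, −1.83 and −1.12. In KO replicate 1, Apoe was found in 22.5% of acinar-marker-rich spots and in 44.3% of the rest. Ductal-marker-rich spots gave values from −0.45 to −0.03 for Apoe.

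In spots rich in the 24 macrophage markers, C1q was above 0 in all sections, at 0.83, 1.38, 1.31 and 1.13. Apoe was at 1.21, 1.57 and 1.32 in the first 3 sections and at 0.29 in KO replicate 2, where 17.3% of macrophage-marker-rich spots and 17.5% of the rest held Apoe and where C1q was in 37.7% against 24.7%. Apoe was also above 0 in all 4 sections in spots rich in fibroblast markers (1.51, 1.11, 0.65 and 0.88), fat markers (1.07, 2.26, 0.26 and 1.72), lymphoid markers (0.69, 2.69, 0.32 and 1.09, on 33 and 46 rich spots in the WT sections) and dendritic cell markers (0.86, 1.76, 0.32 and 0.62). C1q was above 0 in all 4 sections in fibroblast-marker-rich spots (0.85, 0.65, 0.62 and 0.55) and fat-marker-rich spots (0.30, 2.21, 0.09 and 0.60), but not in lymphoid or dendritic ones. The fat-marker values of WT replicate 2 rest on 75 rich spots. In KO replicate 2 Apoe was found in 37.2% of fat-marker-rich spots, more often than in the macrophage-marker-rich ones. Of the 469 CPM of fat markers in that section, however, Fabp4 held 336. Fabp4 also stands in the list of lipid-associated macrophages below. Likewise, Cd74 held 445 of the 594 CPM of dendritic cell markers there. Red-blood-marker-rich spots of KO replicate 2 held Apoe in 40.2%, at a log2 odds ratio of 1.78. That list gave −0.06 and 1.87 in WT replicates 1 and 2 and 0.37 in KO replicate 1, on 198, 23 and 48 rich spots. How much of the Apoe came from each cell type was not tested, and the lists share spots. Depth was matched on all UMIs, so the enzyme share of a spot was not matched. Its part in the values above 0 was not tested either. The same odds ratios for all genes or for olfactory receptor genes were not computed.

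**Figure D5:**
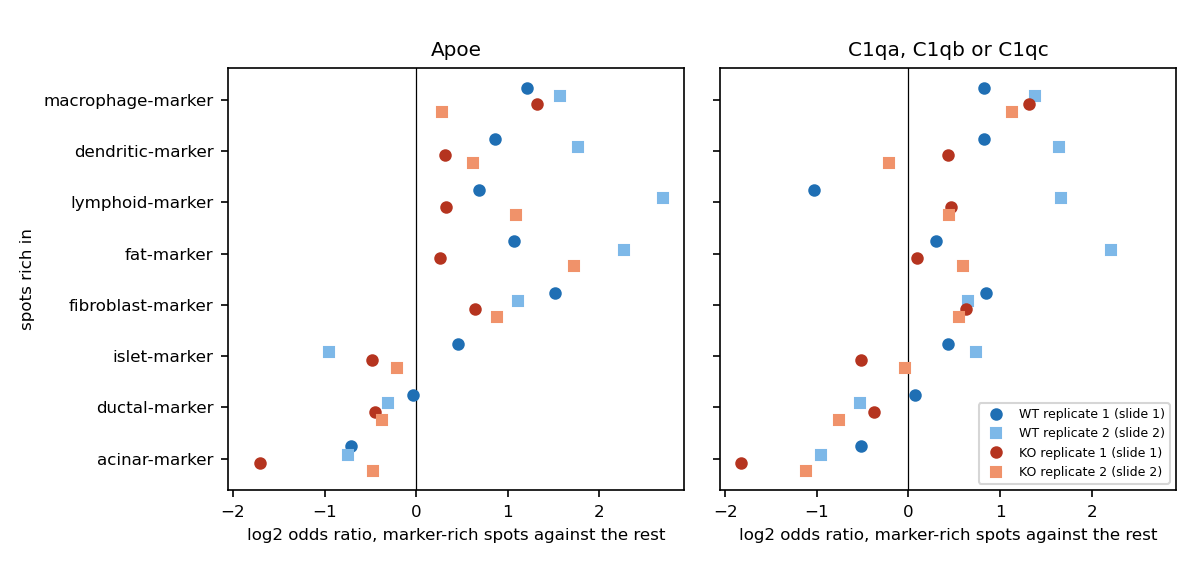
Log2 odds ratio of finding Apoe (left) or any C1q gene (right) in spots rich in the markers of a cell type against the other spots of the section, at matched depth, for each section. Acinar-marker-rich spots lie below 0 in all sections in both panels, and macrophage-marker-rich spots lie above 0, with Apoe in KO replicate 2 at 0.29.

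Genes of the same pathways were read from 6 lists that hold none of the 10 genes but share some genes with each other and with the marker lists, and edgeR called no gene of any list at an adjusted p under 0.05, beside the 0.0947% called of all genes. Of all genes tested, 56.2% had a log2 fold change above 0, with a median of 0.25. Markers of adrenal cortex and of intestinal epithelium had medians of 0.72 and 0.81. Of 21 other complement genes, 18 had a log2 fold change above 0, with a median of 0.78 (0 at an unadjusted p under 0.05). Cfb, a protease of the alternative pathway, was the highest at 1.71 (SE 0.92), with 5.68 and 21.4 CPM in WT and 134 and 122 CPM in KO. Cfp, or properdin, which stabilizes the alternative pathway convertase, followed at 1.69 (SE 1.03), with 16.7 and 32.9 CPM against 298 and 255. The lowest were C4b, a component of the classical pathway downstream of C1, at −0.34 (SE 0.85), and Cd59a, an inhibitor of the membrane attack complex, at −0.34 (SE 0.77). In CPM both were higher in both KO sections, as were 91.1% of all genes. C4b had 18.2 and 13.3 CPM in WT against 54.1 and 62.6 in KO, and Cd59a 3.40 and 10.1 against 15.7 and 17.5.

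Of 14 genes around Csf1r, 13 were above 0, with a median of 0.83 (0 at an unadjusted p under 0.05). The highest was the macrophage transcription factor Maf at 1.60 (SE 1.06), with 19.1 and 59.3 CPM in WT and 365 and 358 CPM in KO. The lowest were Cebpa at −0.60 (SE 0.85), with 15.1 and 29.0 CPM in WT and 54.1 and 47.9 CPM in KO, and Il34, the second ligand of Csf1r, at 0.14 (SE 1.26). Of 10 lipoprotein receptor and uptake genes, 8 were above 0 with a median of 0.75 (0 at an unadjusted p under 0.05). Stab1, a scavenger receptor of macrophages and endothelium, was at 1.46 (SE 1.02), Lrp8, an Apoe receptor, at 1.04 (SE 0.76), Sorl1 at −0.15 (SE 0.67) and Vldlr at −1.21 (SE 0.77).

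With TMM scaling, the 19 genes of cholesterol efflux and lipoproteins did not share this direction, with 7 above 0 and a median of −0.24 (1 at an unadjusted p under 0.05). In CPM, 17 of the 19 were higher in both KO sections than in both WT sections, as were 91.1% of all genes. In shares thinned to 500 UMIs of non-enzyme genes, 15 of the 19 were, and 15 of the 21 complement genes, beside 46.1% of all genes. The contrast between these lists thus depended on the scale. The lowest were the nuclear receptors Rxra at −2.74 (SE 0.84, adjusted p = 0.277) and Nr1h2 at −1.54 (SE 0.90), and the highest were Pltp, phospholipid transfer protein, at 1.13 (SE 0.73) and Apoc4 at 0.90 (SE 1.23). In CPM, Rxra had 22.9 in WT replicate 1 and between 9.31 and 13.6 in the other 3 sections. Nr1h2 had 27.5 and 25.5 CPM in WT and 39.7 and 39.6 CPM in KO. Of 20 genes of Trem2 signalling and lipid-associated macrophages, 10 were above 0 with a median of −0.11 (1 at an unadjusted p under 0.05). Here 18 of the 20 were higher in both KO sections in CPM, and 15 in the shares thinned to non-enzyme UMIs. The highest were Ctss, a lysosomal protease of macrophages, at 1.85 (SE 1.11), with 28.5 and 48.1 CPM in WT and 588 and 401.8 CPM in KO, and Itgax at 1.43 (SE 2.45) on 11, 2, 28 and 14 UMIs. The lowest were the protease Ctsl at −3.12 (SE 1.92), with 4503 and 5307 CPM in WT and 2378 and 2212 CPM in KO, and the membrane protein Cd63 at −2.35 (SE 1.12). Cd63 had 125 and 110 CPM in WT and 118 and 82.1 CPM in KO. Of 14 efferocytosis genes, 9 were above 0 with a median of 0.54 (1 at an unadjusted p under 0.05). Cd300lf at 1.29 (SE 0.70) and Mertk, a receptor for dying cells, at 1.27 (SE 0.69) were the highest. Dock1 at −0.95 (SE 0.90) and Mfge8, a bridge between dying cells and phagocytes, at −2.39 (adjusted p = 0.855) were the lowest. Dock1 had 24.5 and 29.0 CPM in WT and 54.7 and 58.3 in KO, and Mfge8 53.8 and 28.9 against 41.9 and 36.6.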

How the data were processed

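The authors hybridized mouse probes to 4 sections of pancreas, each with its own number in its title, and counted them with Space Ranger 2.0.1 on mouse mm10 with the mouse Visium probe set. What they deposited are raw UMI counts (whole numbers) for each gene in each listed spot, on or off the tissue. Of 32589 features, 304 with deprecated probes, which held 0.477% to 0.803% of a section's UMIs, were left out. Tissue spots were those above the lowest point between the 2 highest modes of each section's histogram of log10(UMIs + 1), which left 6183, 10285, 7587 and 8443 spots in WT replicates 1 and 2 and KO replicates 1 and 2.

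Counts were summed per section over tissue and genotype was the only factor of a quasi-likelihood fit by edgeR 4.0.16 under R 4.3.3, after filterByExpr (minimum count 10) and TMM scaling. P-values were adjusted over all genes by Benjamini-Hochberg, with a threshold of 0.05. The 2 sections of a genotype were taken as replicates, so p-values measure only the spread between these sections. Shares used spots with at least 500 UMIs, and exact two-sided permutation tests over sections. Thinned shares are the exact expectation of drawing 500 UMIs per spot without replacement. Co-detection is a Mantel-Haenszel odds ratio over 10 depth strata per section, with no p over spots, which are not replicates. Python 3.11.15 with numpy 2.4.6, pandas 2.3.3 and scipy 1.17.1 was used otherwise. Scripts were tested on simulated data. Alternatives were DESeq2 1.42.0, other normalizations, filters, spots and depths, and each section left out in turn. Slide, read from the alignment files, was added as a block after seeing the data.

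The 10 genes and the lists were chosen with earlier results of these data known. Other genes were named by rule, which took the 10 most co-detected with Apoe and 5 with C1qb among genes with at least 100 positive spots in every section, the 2 highest and 2 lowest log2 fold changes of each pathway list, Ehmt2, Xist and 4 Y-linked genes. 1 gene that this rule names is not reported here. The macrophage markers named in the closing section are outside this rule and were chosen by role. Ttr, Apoa2, Fabp4 and Cd74 are also named outside it, for their part in the sum of a marker list.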

Additional observations from a re-analysis of the deposited data

How the results depend on the processing

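None of the 10 genes was called by edgeR over tissue. This held with upper-quartile normalization, without enzyme genes and without the filter on low counts. It also held with spots of at least 500 UMIs, with every spot with a UMI and with slide as a replicate block. The unadjusted p depended on the scaling. Under 0.05 were 0 of the 10 with TMM (1005 of 20066 genes), 7 with upper-quartile normalization (1249) and 8 with library sizes (3515). DESeq2 called 0 of the 6 for which it gave an adjusted p. Library sizes without TMM factors called 3, among them C1qa at 2.81, and leaving out 1 section called 0 to 5. Over all genes the calls numbered 19, against 195 with library sizes, 3 with upper-quartile normalization, 10 with slide as a replicate block, 192 with DESeq2 and 0 to 16701 with 1 section left out. With 1 section left out, the log2 fold change ran from −0.35 to 1.87 for Apoe, from −0.20 to 1.60 for Cd68 and from −0.92 to 1.27 for Abca1. Abca1 was also 2.05 with library sizes, 0.66 with upper-quartile normalization and 0.20 with the slide block.

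In the shares of spots, the difference of C1qa was 1.51 percentage points when 2 UMIs were asked for. That of Abca1 was −0.0928 over tissue and −0.0179 with 2 UMIs. With 1 section left out it ran from −1.73 to 2.15 for Abca1 and from −0.0964 to 12.5 for Cd68. Co-detection above 0 in all 4 sections held for 6 genes, beside 21.6% of all genes. It held for 3 both with strata of UMIs of non-enzyme genes and with spots thinned to 500 UMIs, where no share of all genes was computed. Its mean was 0.88 for C1qa with 2 UMIs of Apoe asked for, and with thinned spots −0.0203 for Csf1r, −0.18 for Gpnmb and 0.0155 for Abca1. Abca1 was at 0.48 with 2 UMIs of Apoe, over 3 sections, and from −0.35 to 0.25 with 1 section left out. Of all values of the 10 genes under other settings, 100 log2 fold changes kept their direction and side of the threshold, 4 kept their direction without an adjusted p, 9 kept it and passed the threshold, and 7 turned, 1 of them (Abca1 without WT replicate 1) past the threshold. Likewise, 62 differences in share stayed within the spread, 14 moved and 4 turned, and 66 co-detection values stayed within it, 10 moved and 5 turned. The slide block was chosen after seeing the data, since replicate numbers only name the sections. The cause of these changes was not tested.

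With a common dispersion of 0.362 and 2 sections per genotype, a gene that passed no threshold is not shown to be unchanged. WT replicate 1 carried most of the depth. The shares of spots for Lyz2 and Gpnmb in all sections, and for Abca1 in WT replicate 2 and KO replicate 2, lay within the range of olfactory receptor genes. Those for C1qb, C1qc, Csf1r and Trem2 in WT replicate 2 lay near its upper end, reached by at most 1.76% of olfactory receptor genes. Trem2 in KO replicate 2 was reached by 0.0881% of them.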

Other observations

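The macrophage list held markers of monocyte-derived and of resident cells. Of its 24 genes, 23 had a higher CPM in both KO sections than in both WT sections and 18 did with TMM scaling. Vsig4, a receptor of resident macrophages, did not, with 0.114 and 6.44 CPM in WT and 6.00 and 11.8 CPM in KO. Its values lay close to the olfactory receptor medians, and below them in both KO sections. Ccr2, the chemokine receptor of recruited monocytes, had 21.7 and 18.9 CPM in the WT sections and 202 and 184 CPM in the KO sections. Ly6c2, a surface marker of the same cells, had 1.48 and 5.29 CPM against 25.6 and 14.8, near the median of olfactory receptor genes in WT replicate 2 and KO replicate 2. Mrc1, the mannose receptor of resident macrophages, had 6.12 and 13.7 CPM against 89.3 and 137, Folr2 had 5.16 and 16.1 CPM against 52.0 and 52.0, and Cd163, the receptor for haemoglobin bound to haptoglobin, had 1.03 and 6.67 CPM against 17.6 and 31.4. Lyve1 had 0.411 and 5.86 CPM against 10.3 and 14.4 and Timd4 had 0.434 and 10.1 CPM against 14.3 and 19.4, close to the olfactory receptor medians of 0.251, 5.40, 8.28 and 12.8 CPM. Adgre1, which encodes F4/80, had 0.822 and 5.63 CPM against 10.7 and 13.4, also close to those medians. None of the 24 genes passed edgeR's threshold (0 at an unadjusted p under 0.05). The order of KO above WT held for 91.1% of all genes tested in CPM and for 19.4% with TMM scaling.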
